A study of Homo sapiens with 52 samples.

Results

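The genes described here encode the machinery that fills, docks, releases and recycles synaptic vesicles. They are the rows of a table of read counts whose Ensembl identifiers carry 35 listed gene symbols, and all 35 were found among 63241 genes. RNA came from i3Neurons, human neurons made from the induced pluripotent stem cell line WTC11 by doxycycline induction. Cells were moved on day 3 onto inserts with 1 µm pores, which let neurites through and hold cell bodies back, and the soma and neurite sides were harvested separately on day 17. The soma side also holds the neurites that lie beside the cell bodies. The groups were untreated neurons without a guide RNA (4 libraries per fraction), neurons with CRISPR interference against HNRNPA1 and their non-targeting controls (6 per fraction each), and neurons with CRISPR interference against TARDBP, the gene of TDP-43, and their non-targeting controls (5 per fraction each). CRISPR interference silences a gene at its promoter. All groups come from this 1 line, and the labels do not say that numbered samples are separate cultures, so p-values measure the spread between libraries, which may be technical. Untreated libraries were made with version 2 of the library kit and all others with version 3, so kit and experiment cannot be told apart.

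Synaptic vesicles are loaded with transmitter by vesicular transporters, held in clusters by synapsins and brought to the release site with the help of RAB3 GTPases and their effectors. Fusion is driven by SNARE proteins on the vesicle (VAMP) and on the plasma membrane (STX1A, SNAP25). Complexins hold and promote the SNARE complex, and synaptotagmins sense calcium. NSF and the SNAP adaptors take used SNARE complexes apart, and dynamins, synaptojanin and amphiphysins retrieve the membrane. HNRNPA1 and TDP-43 are RNA-binding proteins that act on splicing, stability and transport. TDP-43 is known to bind UG-rich RNA.

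Since TDP-43 binds such RNA, the longest uninterrupted TG repeat was looked up in the longest transcript of each member (GENCODE release 29, GRCh38, transcript strand only). A repeat of at least 12 bases occurred in 7 of the 35 members, and in 4.36% of the 19669 protein-coding genes searched the same way. These 7 repeats all lay in 3′ untranslated regions and are printed here with CPLX2, which had many short repeats. Capitals mark bases in TG repeats. Each line is 30 bases, and for a repeat over 24 bases it shows the 6 bases before it and its first 24 bases.
SYT5: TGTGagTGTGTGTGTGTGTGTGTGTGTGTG
SYT2: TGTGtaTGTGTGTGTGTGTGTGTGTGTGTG
SYT1: gttccgTGTGTGTGTGTGTGTGTGTGTGTG
RAB3C: attgctTGTGTGTGTGTGTGTGTGTGTGTG
DNM3: tgctattTGTGTGTGTGTGTGTGtctttgt
SYNGR1: atcTGTGTGTGTGTGTGcgTGTGTGTGcgg
VAMP2: ccgTGTGTGTGTGTGtccgTGTGTGTGtcc
CPLX2: gcgTGTGTGTGtcttgagatTGTGTGTGtt

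The coordinates given here are those of the printed 30-base windows, and longer repeats run on beyond them. The full repeat is 40 bases long in SYT5 (window chr19:55171322-55171351, minus strand), 38 in SYT2 (chr1:202596284-202596313, minus strand), 34 in SYT1 (chr12:79449919-79449948, plus strand) and 28 in RAB3C (chr5:58851733-58851762, plus strand). The repeat is 16 bases long in DNM3 (chr1:172412035-172412064, plus strand), 14 in SYNGR1 (chr22:39385369-39385398, plus strand) and 12 in VAMP2 (chr17:8160724-8160753, minus strand). The longest in CPLX2 is 8 bases (chr5:175881275-175881304, plus strand), but its transcript holds TGTGTG at 19 positions, overlapping ones included. SLC17A6, SLC17A7, SYN1, SYN3, NAPA and SNCB hold no TGTGTG at all. Longer transcripts hold longer repeats: among transcripts of similar length, a repeat as long was found in 0.575% for SYT5, 1.47% for SYT2, 1.02% for SYT1, 3.88% for RAB3C and 6.215% for DNM3. The share was 3.92% for SYNGR1, 1.66% for VAMP2 and 27.3% for the 8 bases of CPLX2. The number of TGTGTG positions was not compared with that of other transcripts. A match is a description of the letters, and binding was not measured.

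Of 52 libraries 51 were used, since TDP-43 knockdown soma sample 5 was nearly empty, which leaves 4 libraries in that group. Depth was lowest in untreated neurites, with 2541925 to 4346122 counts, and reached 28902344 in TDP-43 knockdown soma. All 35 members passed the filter on low counts in every fit, and the lowest count of any member in any library was 6, for DOC2A in an untreated neurite library. HNRNPA1 averaged 361 ± 20.7 CPM in control soma and 141 ± 9.35 after its knockdown, and 589.6 ± 32.6 and 201 ± 15.99 in neurites (SD, n = 6 each). CPM are counts per 1000000 of the TMM-scaled library, a scaling that assumes most genes do not differ. TARDBP averaged 111 ± 4.59 CPM in control soma (n = 5) and 19.5 ± 0.927 after its knockdown (n = 4), and 117 ± 7.26 and 41.8 ± 4.26 in neurites (n = 5 each). All 10 neuron markers averaged at least 1 CPM in every group, and they summed to 6806 to 12689 CPM in soma and 8429.6 to 28109 in neurites. The 10 markers of neural progenitors summed to 190.4 to 276 CPM in control soma and 366 to 575 in control neurites of the knockdown experiments, and to 249 to 369 and 451 to 727 after knockdown. In untreated cells they summed to 86.997 to 93.1 and 229 to 267. NES made up most of the sum in each group of the knockdown experiments, with a mean of 221 CPM in control and 307 in knockdown soma of the HNRNPA1 experiment and 192 and 239 in the TDP-43 experiment. VIM and SOX2 went the other way in soma, from means of 17.5 and 12.53 CPM to 11.9 and 6.36 with TDP-43 knockdown, and from 24.4 and 3.09 to 21.8 and 2.35 with HNRNPA1 knockdown. The 8 cycling markers summed to 30.6 to 49.9 CPM in untreated soma and 63.96 to 84.8 in untreated neurites, above the 11.4 to 17.3 of control soma and the 26.2 to 37.6 of control neurites, and to 10.5 to 21.2 and 24.6 to 39.5 after knockdown. The part of these other cells in the results below was not tested. In these bulk samples fewer cells of a type and less RNA per cell cannot be told apart. Exons of 12 members (SYN1, SYN2, SYP, SYT1, SYT2, STX1A, VAMP1, RAB3A, NAPA, DNM1, SLC17A6 and DOC2A) overlap a gene on the opposite strand. The sources used here do not give the strand setting of the counting, so reads of the partner gene cannot be told apart and the values of these members are uncertain to that extent. Exons of VAMP2, SYN1 and NAPA overlap a gene on the same strand (AC129492.3, AL009172.2 and AC073548.1). No strand setting separates such reads, so these values are uncertain as well. Fractional counts occurred for members in up to 96.1% of libraries (NSF, then SNAP25 with 88.2% and DNAJC5 with 84.3%), and how they arose was not tested.

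Levels of different genes are compared here as CPM per kilobase of the gene's joined exons, given as mean ± SD. In control soma of the HNRNPA1 experiment SYT4, a synaptotagmin that does not trigger fast release, was highest at 131 ± 4.42. SYT1, the fast calcium sensor, followed at 90.5 ± 2.59 and RAB3A at 90.4 ± 11.3, which do not differ beyond their spread. VAMP2 (54.99 ± 4.59) and SYP, the vesicle protein synaptophysin (53.6 ± 5.04), came next and overlap as well. The lowest were SYN2 at 3.36 ± 0.508, VAMP1 at 1.901 ± 0.108 and RPH3A at 1.83 ± 0.147, and the last pair again lies within its spread. SYT4, SYT1 and RAB3A also led in untreated soma and in control soma of the TDP-43 experiment. In untreated neurites RAB3A led at 299.7 ± 41.2 CPM per kilobase. After TDP-43 knockdown CPLX2 led in neurites at 91.5 ± 4.27, with RAB3A at 90.8 ± 4.29 and SYT4 at 89.8 ± 5.31 within its spread.

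Neurites against soma in untreated cells asks which of these mRNAs make up more of the neurite RNA. With edgeR's quasi-likelihood test and p-values adjusted over all genes, 15 of the 35 members were higher in neurites and 6 lower, with 56.5% of all genes called (28.7% higher and 27.8% lower). The members' share called either way is near the background. By direction more members were higher than lower, and 27 lay above the median of all genes and 8 below. The members' median log2 value was 0.18, against -0.21 for all genes tested. In control cells of the HNRNPA1 experiment 7 members were higher and 13 lower, with 48.4% of all genes called (23.5% higher and 24.9% lower). In control cells of the TDP-43 experiment 5 were higher and 14 lower, with 46.5% of all genes called (24.1% higher and 22.3% lower). Within HNRNPA1 knockdown cells 4 were higher and 9 lower, with 35.8% of all genes called (19.4% higher and 16.4% lower), and within TDP-43 knockdown cells 11 and 11, with 57.7% of all genes called (28.7% higher and 29% lower). These directions rest on the scaling: with plain library sizes the median of all genes moved from -0.21 to -1.43 in untreated cells, and for the HNRNPA1 and TDP-43 controls from -0.05 to -0.40 and from -0.03 to -0.63. The calls then became 1 higher and 31 lower, 2 and 29, and 0 and 33, and in knockdown cells 1 and 31 for HNRNPA1 and 0 and 26 for TDP-43. Over all genes 16965 of 18556 were then called in untreated cells (2041 higher). In HNRNPA1 controls they were 14040 of 19812 (1911 higher) and in TDP-43 controls 16427 of 22014 (1891 higher). In knockdown cells they were 14532 of 19812 for HNRNPA1 (1155 higher) and 15736 of 22014 for TDP-43 (2171 higher). In untreated cells the members' median lay above that of all genes by 0.37 with library sizes and by 0.39 with TMM. The untreated directions rest on the low-count filter as well. Where every library of the smallest group needed at least 10 counts, more members were lower than higher, as given with the comparison of ratios below. Values below are on the TMM scale, where a higher value means higher relative to most genes. Several change sign or lose the call with library sizes, and the sign changes are listed with the alternatives.

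**Figure D1:**
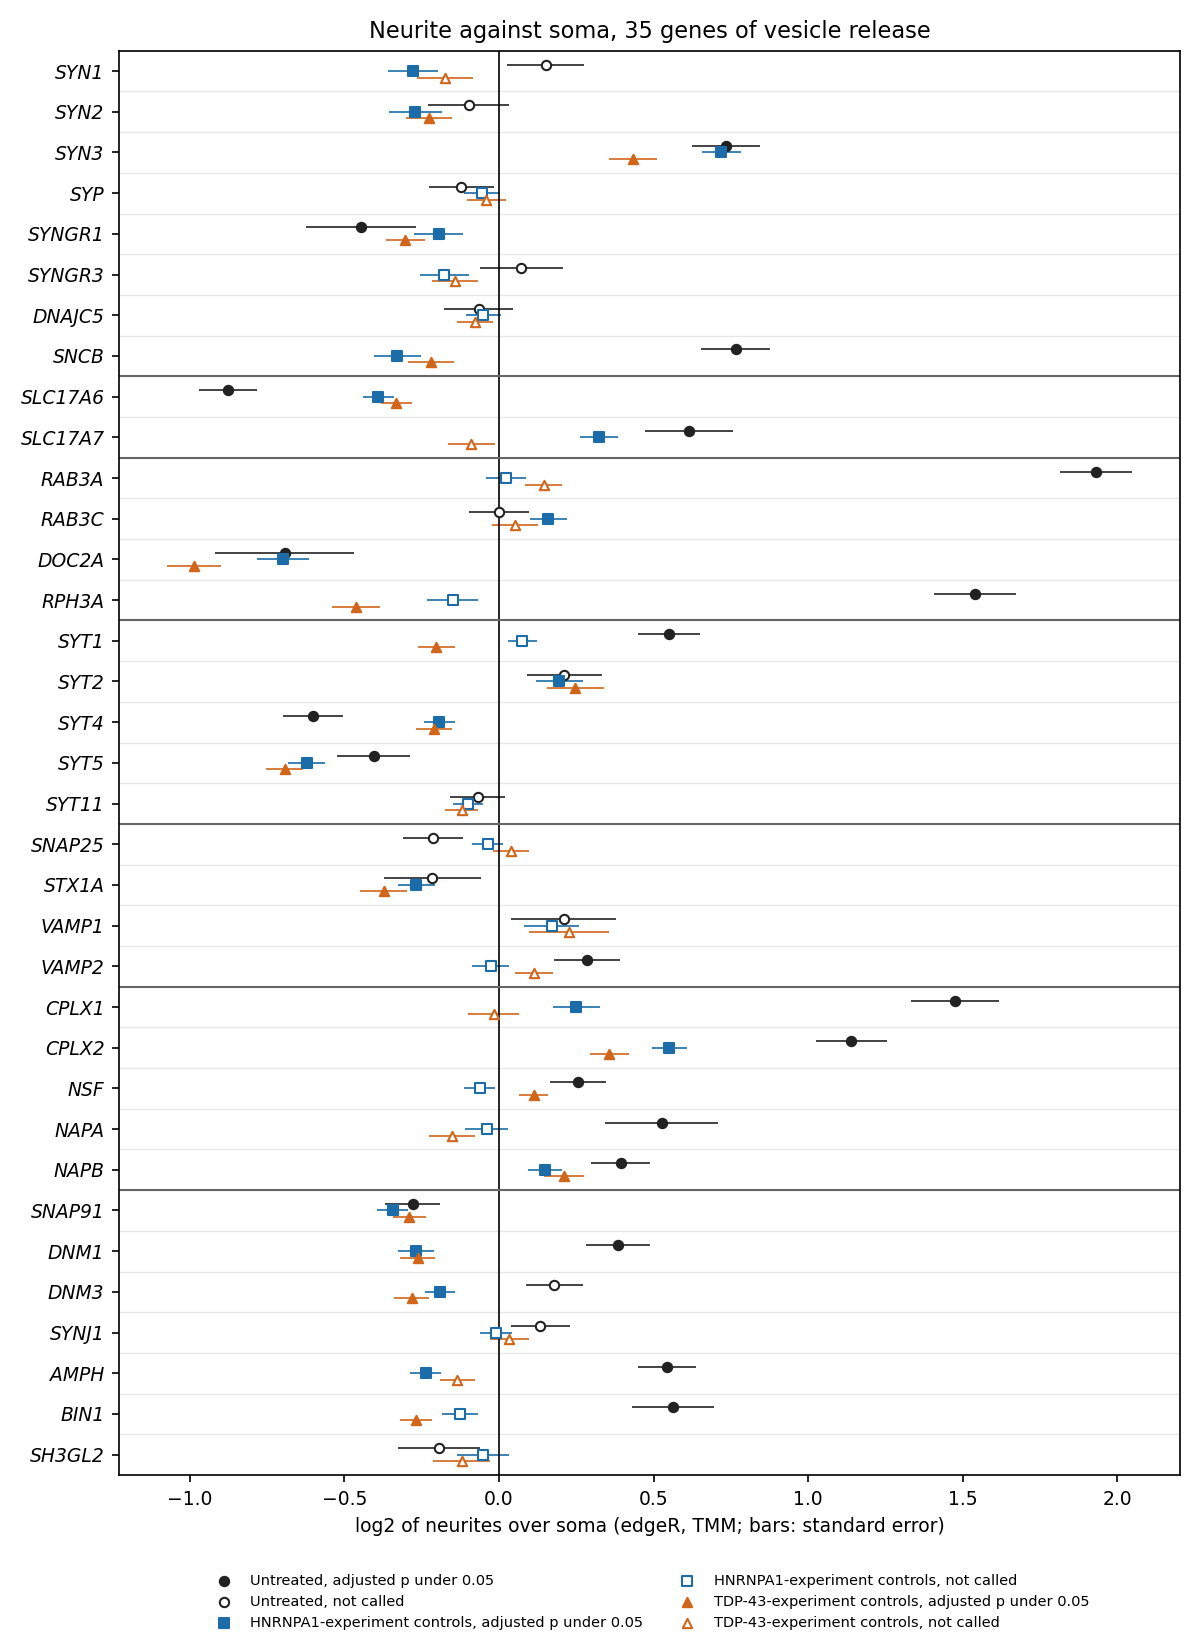
The log2 ratio of neurites over soma (x axis, TMM scale) is plotted for each of the 35 genes, grouped by role, with 1 symbol for untreated cells and 1 for the controls of each knockdown experiment. Bars are standard errors and filled symbols have an adjusted p under 0.05; RAB3A, RPH3A and CPLX1 lie far to the right in untreated cells, at 1.93, 1.54 and 1.48, and in HNRNPA1 controls at 0.02, -0.15 and 0.25.

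Across the synapsins, which tie vesicles to each other and to actin, SYN3 was higher in neurites in all 3 sets. Its libraries held 58.3, 65.5, 71.1 and 84.9 CPM in untreated soma and 109.6, 116, 119.7 and 121 in untreated neurites. In HNRNPA1 controls it ran from 30.6 (median 36.7) to 36.98 CPM in soma and from 52.7 (median 57.6) to 64.5 in neurites. The fractions did not overlap in either set, and the log2 ratios were 0.73 ± 0.11 (SE, adjusted p = 8.51e-06) and 0.72 ± 0.06 (adjusted p = 2.58e-11). In TDP-43 controls the ratio was 0.43 ± 0.08 (adjusted p = 3.74e-05). SYN1, the most abundant synapsin per kilobase in control soma, had ratios of 0.15 ± 0.12 in untreated cells and -0.17 in TDP-43 controls, neither of which passed, and was lower in neurites of HNRNPA1 controls at -0.28 ± 0.08 (adjusted p = 0.00489). SYP passed in no set: its libraries ran from 112 to 151 CPM in untreated soma and 119 to 135 in untreated neurites. SNCB, beta-synuclein, was higher in untreated neurites (0.77 ± 0.11) and lower in those of both controls (-0.33 ± 0.08 and -0.22 ± 0.07). SYNGR1, synaptogyrin 1, was lower in neurites in all 3 sets, at -0.45 ± 0.18 in untreated cells (adjusted p = 0.0394). The untreated call ended with limma-voom (adjusted p = 0.0571). It also ended without untreated neurite sample 4, 5 or 7 or untreated soma sample 4 or 6 (adjusted p from 0.0611 to 0.301).

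The vesicular glutamate transporters split. SLC17A6 (VGLUT2) was lower in neurites in each set. In untreated cells it held 258, 259, 265 and 290.3 CPM in soma and 136, 147, 149 and 152 in neurites, a log2 ratio of -0.88 ± 0.09 (adjusted p = 6.2e-08). In the controls the ratios were -0.39 ± 0.05 and -0.33 ± 0.05, and no neurite library reached the lowest soma library. SLC17A7 (VGLUT1) was higher in untreated neurites, with 24.3, 28.1, 28.4 and 30.8 CPM against 15.4, 17.8, 18.4 and 22.2 in soma (log2 ratio 0.61 ± 0.14, adjusted p = 0.00103). It was also higher in neurites of HNRNPA1 controls (0.32 ± 0.06, adjusted p = 5.21e-05), while in TDP-43 controls its ratio of -0.09 did not pass. The ratio differed between the HNRNPA1 and TDP-43 controls by 0.49 ± 0.11 (adjusted p = 0.0112), as did that of SYT1 by 0.36 ± 0.09 (adjusted p = 0.0186). These were the 2 members that differed between the controls, with 3.06% of all genes called (1.59% higher and 1.47% lower). With no filter beyond 1 count the SYT1 difference missed the threshold (adjusted p = 0.0746).

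Among docking factors RAB3A, the main RAB3 GTPase of the vesicle, gave the largest neurite ratio of the members in untreated cells. It held 122, 145, 148 and 157 CPM in soma and 478, 482, 605 and 614 in neurites, a log2 ratio of 1.93 ± 0.12 (3.81-fold, adjusted p = 3.99e-12). In both controls the fractions overlapped, from 138 to 191 CPM in soma and 153 to 179.8 in neurites of HNRNPA1 controls. RPH3A, rabphilin, an effector of RAB3, held 19.8, 25.9, 26.2 and 32.1 CPM in untreated soma and 65.1, 72.3, 78.2 and 83.8 in neurites, also without overlap (1.54 ± 0.13, 2.91-fold). With library sizes its untreated ratio fell to 0.31 and missed the threshold (adjusted p = 0.0559). In control neurites of the HNRNPA1 experiment it reached at most 20.3 CPM, and in TDP-43 controls it was lower in neurites than in soma (-0.46 ± 0.08). DOC2A, a soluble calcium sensor of the double-C2 family, was lower in neurites in all sets, at -0.69 ± 0.23 without a guide, and at -0.70 ± 0.08 and -0.99 ± 0.09 in the HNRNPA1 and TDP-43 controls. The untreated value of DOC2A rests on 6 to 27 counts per neurite library, and without untreated neurite sample 4 or sample 5 it missed the threshold (adjusted p = 0.0879 and 0.0984). RAB3A and DOC2A share exon sequence with MPV17L2 and INO80E on the opposite strand.

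Calcium sensors of the synaptotagmin family showed no common direction. SYT1 was higher in untreated neurites, with 732, 776, 829.6 and 860.2 CPM against 525, 529.7, 562 and 566 in soma (0.55 ± 0.10, adjusted p = 0.000101). In TDP-43 controls it was lower in neurites (-0.20 ± 0.06, adjusted p = 0.00593). SYT4 was lower in neurites in all 3 sets, at -0.60 ± 0.10 in untreated cells and -0.19 ± 0.05 and -0.21 ± 0.06 in the controls. SYT5 was lower as well, at -0.41 ± 0.12, -0.62 ± 0.06 and -0.69 ± 0.06. SYT2, the other fast sensor, was higher in neurites of both controls (0.19 ± 0.08 and 0.25 ± 0.09). The TDP-43-control call of SYT2 ended with no filter beyond 1 count (adjusted p = 0.111) and without control neurite sample 1, 2 or 6 or control soma sample 4 or 5 (adjusted p from 0.0574 to 0.0989). SYT11, a synaptotagmin without calcium binding, passed in no set.

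Of the SNARE proteins SNAP25 passed in none of the sets (-0.21 ± 0.10 in untreated cells, adjusted p = 0.0643). STX1A, syntaxin 1A, was lower in neurites of both controls (-0.27 ± 0.06 and -0.37 ± 0.08), and its untreated value of -0.22 ± 0.16 did not pass. VAMP2, synaptobrevin 2, was higher in untreated neurites (0.28 ± 0.11, adjusted p = 0.0297) and passed in neither control, but the difference from the controls did not pass. Complexins stood higher in untreated neurites. CPLX2 held 113, 116, 145 and 156 CPM in untreated soma and 262, 279, 303 and 324 in neurites (1.139 ± 0.11, adjusted p = 2.29e-08), and it was higher in neurites of both controls too (0.55 ± 0.06 and 0.36 ± 0.06). With library sizes the CPLX2 ratio turned to -0.0904 in untreated cells and -0.24 in TDP-43 controls. CPLX1 held 13.4, 14.5, 17.7 and 19.9 CPM in untreated soma and 36.5, 45.5, 49.3 and 50.01 in neurites (1.48 ± 0.14). With library sizes its untreated ratio fell to 0.25 and missed the threshold (adjusted p = 0.113). On the TMM scale the CPLX1 ratio was 0.25 ± 0.08 in HNRNPA1 controls, which passed, and -0.02 in TDP-43 controls, which did not. NSF, NAPA and NAPB, which undo SNARE complexes, were all higher in untreated neurites (0.26 ± 0.09, 0.53 ± 0.18 and 0.39 ± 0.09). NAPB was higher in neurites of both controls too, at 0.21 ± 0.06 in TDP-43 controls (adjusted p = 0.00734). That TDP-43-control call ended with no filter beyond 1 count (adjusted p = 0.173).

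Of the 7 endocytic members 3 were higher in untreated neurites: BIN1 (0.56 ± 0.13) and AMPH (0.54 ± 0.09), which bend membrane, and DNM1, the neuronal dynamin that pinches vesicles off (0.38 ± 0.10). In HNRNPA1 controls none was higher and 4 were lower in neurites (SNAP91, DNM1, DNM3 and AMPH). In TDP-43 controls 4 were lower (SNAP91, DNM1, DNM3 and BIN1). SNAP91, the clathrin adaptor AP180, was the only endocytic member lower in all 3 sets, at -0.28 ± 0.09, -0.34 ± 0.05 and -0.29 ± 0.05. SYNJ1 (synaptojanin) and SH3GL2 (endophilin A1) passed in none.

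The neurite to soma ratio of untreated cells was compared with that of each control set in a single fit. Against HNRNPA1 controls 8 members were higher and 8 lower, with 37.1% of all genes called (13.1% higher and 24% lower). Against TDP-43 controls 12 were higher and 3 lower, with 37.5% of all genes called (13.5% higher and 24.1% lower). These comparisons share the untreated libraries. Higher in both were RAB3A (1.64 ± 0.13 and 1.599 ± 0.13), RPH3A (1.43 ± 0.15 and 1.82 ± 0.16), CPLX1 (0.96 ± 0.17 and 1.31 ± 0.18), SNCB (0.83 ± 0.14 and 0.80 ± 0.15), AMPH, BIN1, DNM1 and CPLX2. Lower in both were SLC17A6 (-0.75 ± 0.09 and -0.73 ± 0.10), SYT4 (-0.67 ± 0.10 and -0.58 ± 0.10) and SNAP25 (-0.44 ± 0.10 and -0.44 ± 0.10). Where every library of the smallest group needed at least 10 counts, DNM1 missed the threshold against both controls (0.21 and 0.22, adjusted p = 0.0719 and 0.0731), and BIN1 (0.25, adjusted p = 0.09799) and CPLX2 (0.15, adjusted p = 0.238) against HNRNPA1 controls. Against HNRNPA1 controls BIN1 also missed it without untreated neurite sample 7 (adjusted p = 0.0877). CPLX2 missed it there with no filter beyond 1 count (adjusted p = 0.0723) and in 7 of the fits without 1 library (adjusted p from 0.0616 to 0.125): untreated soma sample 5 or 7, untreated neurite sample 6 or 7, control soma sample 1 or 6, or control neurite sample 3. The sums of cycling and progenitor markers given above differ between untreated and control cells, and their part was not tested. Kit version, guide RNA and depth all changed with these groups and cannot be told apart. Genes with at least 5 counts numbered 35105 to 42480 in untreated soma and 13714 to 18817 in untreated neurites. In control soma they numbered 21918 to 29842 and in control neurites 19372 to 24891. In each experiment's own fit, TMM factors were 1.49 to 1.62 in untreated soma and 0.60 to 0.70 in untreated neurites. Those of controls were 1.08 to 1.29 and 0.60 to 1.03. The part of these differences was not tested. Without untreated neurite sample 7 the calls against HNRNPA1 controls fell to 10. With library sizes the calls became 2 higher and 26 lower against HNRNPA1 controls and 4 and 18 against TDP-43 controls. Over all genes they were then 16337 of 29425 (1967 higher) and 14770 of 29425 (2287 higher). With RLE size factors the members' calls were 12 and 3 against HNRNPA1 controls, and 9112 of 29425 over all genes (4610 higher). Under the filter of 10 counts the members' calls were 5 and 15 against HNRNPA1 controls and 8 and 16 against TDP-43 controls. The untreated fraction calls became 7 higher and 16 lower. Calls over all genes under that filter are not given here, so these counts cannot be read as particular to the members.

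Other genes of the release pathway, from lists of related function, can be set beside the members, on the TMM scale only. Over all genes the shares called higher and lower were 28.7% and 27.8% in untreated cells, 23.5% and 24.9% in HNRNPA1 controls and 24.1% and 22.3% in TDP-43 controls. Of 22 active zone and priming genes 14 were higher and 2 lower in untreated neurites, 13 and 2 in HNRNPA1 controls and 10 and 4 in TDP-43 controls. Of 28 further endocytic genes 14 were higher and 4 lower in untreated neurites, 8 and 7 in HNRNPA1 controls and 9 and 5 in TDP-43 controls. Of 15 tested proton pump genes, which acidify the vesicle, 10 were higher and 4 lower in untreated neurites, and of 16 tested in the knockdown experiments 4 were higher and 7 lower in HNRNPA1 controls and 5 and 6 in TDP-43 controls. With library sizes these lists were not refitted.

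HNRNPA1 knockdown against non-targeting controls asks which members change in each fraction when HNRNPA1 RNA is lowered. Protein is not part of these data. In soma 4 members rose (SYT2, SLC17A7, SNCB and CPLX2) and 4 fell (RAB3C, SYT4, SYNJ1 and SNAP91), with 7.09% of all genes called (3.79% higher and 3.3% lower). In neurites 6 rose and 9 fell, with 16.2% of all genes called (8.96% higher and 7.21% lower), and all 8 genes called in soma were called in neurites in the same direction. The median change of the members was -0.01 in soma and -0.05 in neurites, against 0.00 and 0.00 for all genes. With library sizes in place of TMM the neurite calls were 3 higher and 14 lower, and 4430 of 19812 over all genes (605 higher). The 7SL RNAs of the signal recognition particle took 3.54 to 7.85% of counts in control neurites and 6.59 to 12.2% in knockdown neurites (soma 1.06 to 1.899% and 1.82 to 2.17%), and their part in these changes was not tested.

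**Figure D2:**
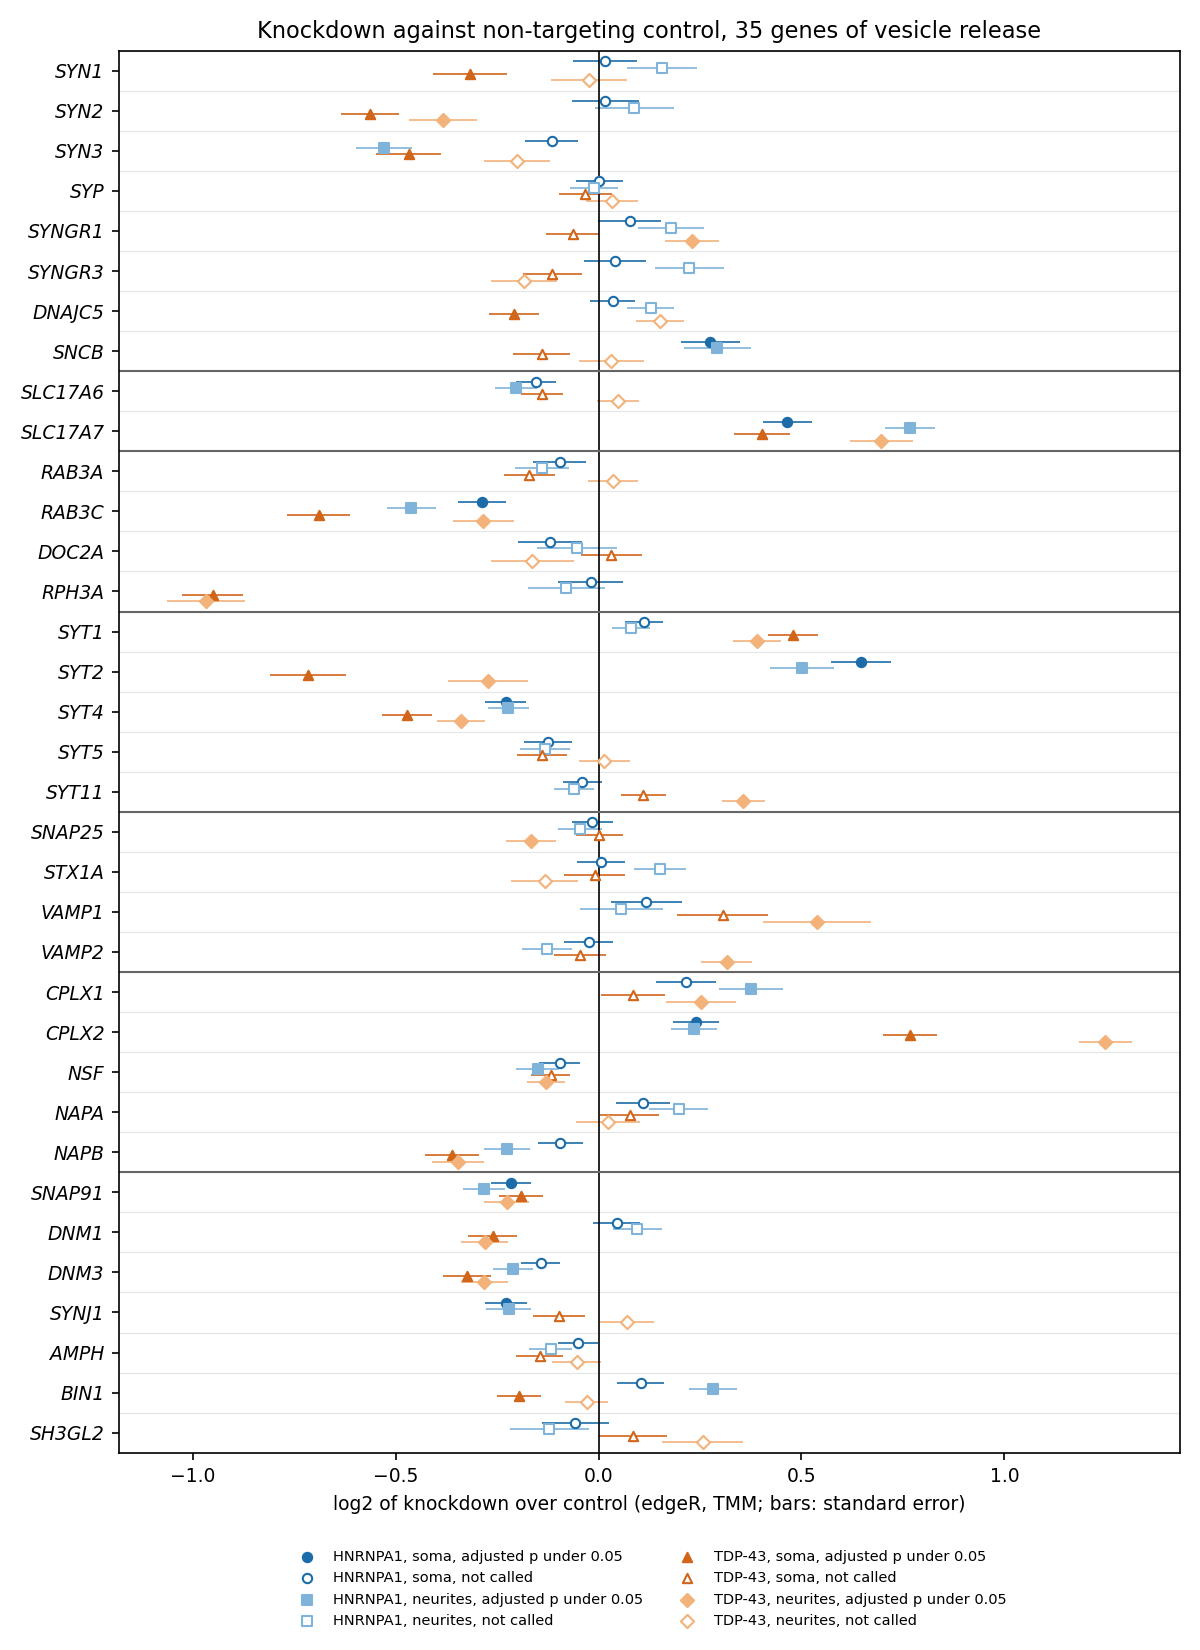
The log2 change after knockdown (x axis, TMM scale) is plotted for each of the 35 genes, grouped by role, for HNRNPA1 and TDP-43 knockdown in soma and neurites. Bars are standard errors and filled symbols have an adjusted p under 0.05; CPLX2 and SLC17A7 lie right of 0 in each contrast, and SYT2 lies right of 0 for HNRNPA1 (0.65 and 0.50) and left of 0 for TDP-43 (-0.72 and -0.27).

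SYT2 showed the largest rise in soma. Control soma libraries ran from 32.3 (median 33.2) to 35.9 CPM and knockdown soma libraries from 50.4 (median 51.98) to 55.1, with no overlap (0.65 ± 0.07, 1.57-fold, adjusted p = 1.63e-07). In neurites controls ran from 29.7 (median 37.5) to 47.9 CPM and knockdown libraries from 45.4 (median 53.9) to 60.9 (0.50 ± 0.08, adjusted p = 3.12e-05), and the groups overlapped. Exons of SYT2 overlap PPP1R12B on the opposite strand.

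SLC17A7 rose in both fractions. In soma controls held 42.9 (median 48.6) to 56.02 CPM and knockdown libraries 64.2 (median 67.7) to 71.7 (0.47 ± 0.06, adjusted p = 2.1e-06). In neurites controls held 57.7 (median 61.7) to 67.8 CPM and knockdown libraries 88.8 (median 107) to 112 (0.77 ± 0.06, 1.702-fold, adjusted p = 2.27e-10). The groups overlapped in neither fraction. SLC17A6 was lower in neurites after knockdown (-0.20 ± 0.05, adjusted p = 0.00685), and in soma its value of -0.15 did not pass.

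CPLX2 rose by 0.24 ± 0.06 in soma (adjusted p = 0.00545) and 0.24 ± 0.06 in neurites (adjusted p = 0.00367). Control and knockdown soma overlapped, at 283 (median 300.3) to 333 and 326 (median 365) to 390.3 CPM. Neurites did not overlap, at 406 (median 453) to 489 and 499 (median 525) to 554. CPLX1 rose in neurites (0.38 ± 0.08, adjusted p = 0.001), and its soma value of 0.22 did not pass. SNCB rose by 0.28 ± 0.07 in soma and 0.29 ± 0.08 in neurites. With library sizes both SNCB calls ended (adjusted p = 0.0559 and 0.183). BIN1 rose in neurites (0.28 ± 0.06).

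RAB3C, a RAB3 family member, fell in both fractions. Soma held 172 (median 192) to 227 CPM in controls and 148 (median 160.4) to 172 after knockdown, without overlap (-0.29 ± 0.06, adjusted p = 0.00162). Neurites held 203 (median 217) to 233 and 148 (median 154) to 177 CPM, with no overlap (-0.46 ± 0.06, adjusted p = 1.89e-06). SYN3 fell in neurites, from 52.7 (median 57.6) to 64.5 CPM in controls against 35.3 (median 40.7) to 47.2 after knockdown, without overlap (-0.53 ± 0.07, adjusted p = 1.4e-06), and its soma value of -0.12 did not pass. SYT4 fell by 0.23 in soma and 0.22 in neurites on the log2 scale. SNAP91 fell by 0.22 in soma and fell by 0.28 in neurites. SYNJ1 fell by 0.23 and 0.22, and NAPB, DNM3 and NSF fell in neurites (-0.23 ± 0.06, -0.21 ± 0.05 and -0.15 ± 0.05).

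The difference of the knockdown effect between fractions was tested as an interaction, and edgeR called no member, with 0.177% of all genes called (0.0454% higher and 0.131% lower). At an unadjusted p under 0.05 there were 4 members: SYN3 (-0.41, adjusted p = 0.0579), SLC17A7 (0.30, adjusted p = 0.203), BIN1 (0.18) and RAB3C (-0.17). DESeq2 called 1 member, SYN3, and SYN3 was also the 1 call with RLE size factors, with library sizes, with either other filter and with the replicate block, but not with limma-voom. SYP, SNAP25, STX1A, VAMP2 and SYT1 passed in neither fraction, with log2 changes between -0.13 and 0.15.

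TDP-43 knockdown against its controls asks the same for lowered TARDBP RNA. In soma 3 members rose (CPLX2, SYT1 and SLC17A7) and 13 fell, with 18.9% of all genes called (9.41% higher and 9.53% lower). In neurites 8 rose and 11 fell, with 24.8% of all genes called (14% higher and 10.9% lower). The members' median change was -0.14 in soma, against 0.02 for all genes, and -0.02 in neurites, against -0.03. With library sizes the calls became 3 higher and 6 lower in soma and 5 higher and 1 lower in neurites. Over all genes they were then 1677 of 22014 in soma (775 higher) and 2580 of 22014 in neurites (1792 higher). In control neurites 11.15 to 29.5% of counts came from 7SL RNAs, and in knockdown neurites 3.52 to 20.7%. Without the 3 neurite libraries over 20%, a choice made after seeing the data, 3 members rose and 17 fell in soma, and 6 rose and 11 fell in neurites. All soma libraries were kept, but soma and neurites share the estimate of spread. Calls over all genes in this refit and its interaction test are not given here, so these counts cannot be read as particular to the members.

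CPLX2 gave the largest rise of the members in both fractions. Control soma held 195, 211, 215, 222 and 224 CPM and knockdown soma 347, 363, 369 and 374. Control neurites held 229, 266, 279, 289 and 302 CPM and knockdown neurites 608, 631, 652, 674 and 682. In both fractions every knockdown library lay above every control. The log2 changes were 0.77 ± 0.07 in soma (1.702-fold, adjusted p = 7.79e-10) and 1.25 ± 0.06 in neurites (2.38-fold, adjusted p = 3.94e-14), and the interaction was 0.48 ± 0.09 (adjusted p = 0.00138). CPLX1 rose in neurites (0.25 ± 0.09, adjusted p = 0.0319), and its soma value of 0.08 did not pass.

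SLC17A7 held 20.97, 21.7, 22.5, 23.9 and 24.2 CPM in control soma and 28.5, 29.8, 30.5 and 30.9 after knockdown (0.40 ± 0.07, adjusted p = 8.97e-05). In neurites it held 19.95, 19.96, 20.2, 22.4 and 23.5 in controls and 30.1, 31.2, 36.5, 36.9 and 39.9 after knockdown (0.70 ± 0.08, adjusted p = 1.28e-07). The groups did not overlap in either fraction. SLC17A6 did not pass in either fraction (-0.14 and 0.05).

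SYT1, which holds one of the longest TG repeats shown above, held 356, 358, 364, 377 and 387 CPM in control soma and 478, 511, 531 and 535 after knockdown. The groups did not overlap (0.48 ± 0.06, adjusted p = 1.17e-06), and neurites rose as well (0.39 ± 0.06, adjusted p = 1.61e-05). SYT2, with a repeat of similar length, went the other way. It held 23.5, 27.6, 30.7, 32.9 and 33.1 CPM in control soma and 17.6, 17.7, 18.1 and 18.6 after knockdown, without overlap (-0.72 ± 0.09, adjusted p = 1.46e-06). In neurites its value was -0.27 ± 0.10 (adjusted p = 0.0413), the groups overlapped, and the call ended with limma-voom (adjusted p = 0.0582) and with the replicate block (adjusted p = 0.159). SYT5, which has the longest repeat, passed in neither fraction (-0.14 and 0.01).

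RAB3C held 185, 187, 194, 199.9 and 206 CPM in control soma and 114, 118, 125 and 126 after knockdown (-0.69 ± 0.08, adjusted p = 1.26e-07). Neurites held 150.3, 199.5, 213, 214 and 228 in controls and 149, 164, 167, 172 and 173 after knockdown (-0.28 ± 0.07, adjusted p = 0.00605). Soma did not overlap, and in neurites 1 control library lay among the knockdown libraries. RPH3A, the RAB3 effector, held 20.5, 21.3, 22.6, 23.6 and 23.9 CPM in control soma and 10.9, 10.97, 12.1 and 12.51 after knockdown (-0.95 ± 0.08, 0.517-fold, adjusted p = 1.6e-10). In neurites it held 13.7, 15.9, 16.98, 17.1 and 17.3 CPM in controls and 7.103, 7.55, 8.11, 9.23 and 9.48 after knockdown (-0.97 ± 0.10, adjusted p = 1.38e-08), and neither fraction overlapped. Its longest TG repeat is 6 bases, a length that 83.5% of transcripts of similar length reach.

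All 3 synapsins fell in soma. SYN2 held 18.4, 18.8, 19.3, 21.1 and 21.2 CPM in control soma and 12.8, 13.2, 13.2 and 14.2 after knockdown, without overlap (-0.56 ± 0.07, adjusted p = 7.39e-07), and fell in neurites too (-0.38 ± 0.08, adjusted p = 0.00115). SYN3 fell in soma (-0.47 ± 0.08, adjusted p = 7.68e-05), with a neurite value of -0.20 that did not pass. SYN1 fell in soma (-0.32 ± 0.09, adjusted p = 0.0132), with -0.02 in neurites. SYT4 changed by -0.47 in soma, at 545 to 625.5 CPM in controls and 392 to 436 after knockdown, and by -0.34 in neurites. In soma and neurites NAPB changed by -0.36 and -0.35, DNM3 by -0.32 and -0.28, DNM1 by -0.26 and -0.28, and SNAP91 by -0.19 and -0.23. With library sizes the calls of NAPB, DNM3 and DNM1 ended in both fractions (adjusted p from 0.163 to 0.399). The neurite call of SYN2 ended as well (adjusted p = 0.142). The soma call of SNAP91 ended without TDP-43 knockdown soma sample 4 (adjusted p = 0.0573) or with no filter beyond 1 count (adjusted p = 0.107).

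VAMP2 differed between fractions. Control soma held 117, 119.5, 128, 129.5 and 138 CPM and knockdown soma 110.2, 119.6, 123 and 138, a change of -0.05 that did not pass. Control neurites held 124, 127, 141, 145 and 146 CPM and knockdown neurites 161, 167, 171, 173 and 177, with no overlap (0.32 ± 0.06, adjusted p = 0.000447). VAMP1 rose in neurites as well (0.54 ± 0.13, adjusted p = 0.00337). In the interaction test 7 members were higher and 0 lower, with 10.5% of all genes called (5.81% higher and 4.67% lower): CPLX2 (0.48), SYT2 (0.44), RAB3C (0.41), VAMP2 (0.36), DNAJC5, a vesicle chaperone (0.36), SYNGR1, synaptogyrin 1 (0.29), and SYT11 (0.25). A positive value means that the change was more positive in neurites than in soma. Of these calls 5 were left without the libraries rich in 7SL RNA, where SYNGR1 and SYT2 missed the threshold (adjusted p = 0.0718 and 0.0626), and with library sizes 0 passed, with values as large or larger: 0.53 for CPLX2, 0.51 for SYT2, 0.46 for RAB3C, 0.43 for VAMP2, 0.42 for DNAJC5, 0.36 for SYNGR1 and 0.33 for SYT11. Over all genes 328 of 22014 were called in this test with library sizes. The number of members called on the TMM scale fell to 4 without control soma sample 2 or 6, knockdown soma sample 1 or 3, or knockdown neurite sample 4. SYNGR1, SYT11 and SYT2 each lost the call in several of the fits without 1 library (adjusted p up to 0.0982, 0.0735 and 0.0739). SYT11 also missed the threshold with the replicate block (adjusted p = 0.09498), and SYT11 and SYNGR1 with no filter beyond 1 count (adjusted p = 0.203 and 0.09203).

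**Figure D3:**
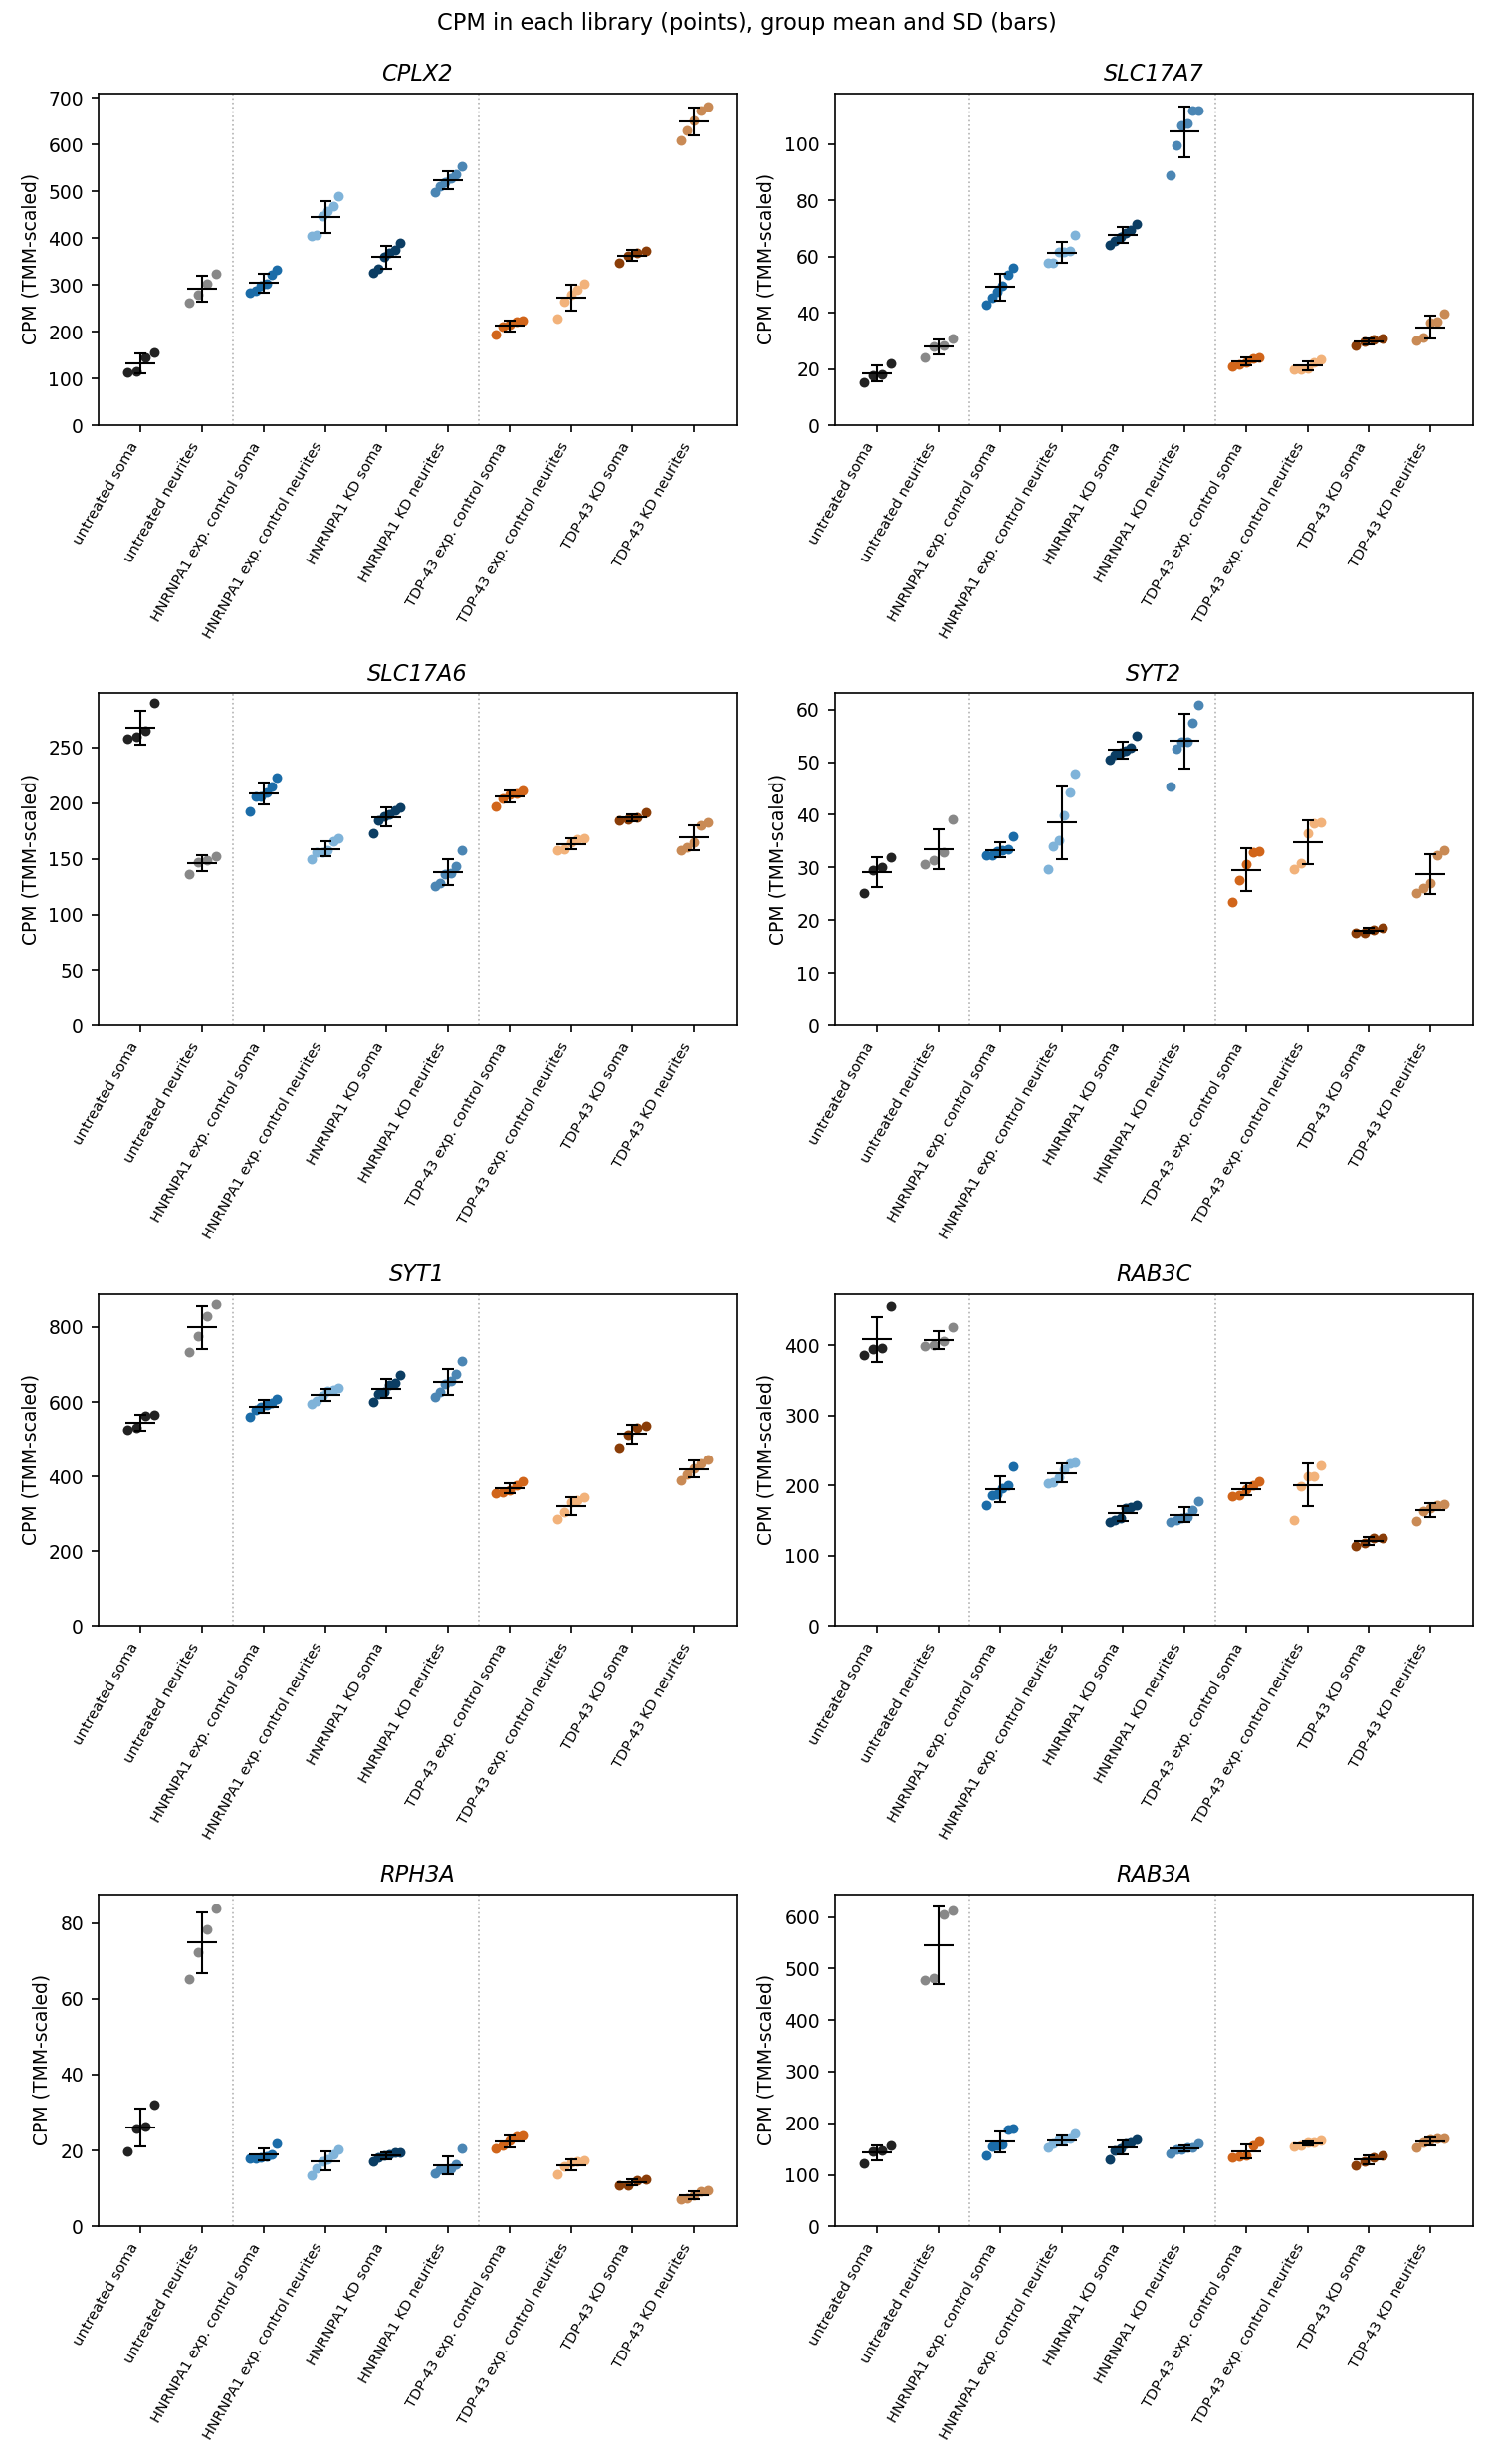
CPM on the TMM scale (y axis, from 0) is shown for 8 genes in each of the 51 libraries (points) of the 10 groups (x axis), with the group mean and SD as bars. CPLX2 and SLC17A7 are higher in each knockdown group than in its control, SYT2 rises after HNRNPA1 knockdown and falls in soma after TDP-43 knockdown, and RAB3A stands out only in untreated neurites, between 478 and 614.

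Other genes of the pathway also changed after TDP-43 knockdown, beside 18.9% of all genes called in soma and 24.8% in neurites. Among 26 further SNAREs and release regulators 4 rose and 4 fell in soma, and 5 rose and 2 fell in neurites. DOC2B, a calcium sensor related to DOC2A, rose by 1.05 in soma and 1.26 in neurites, while RAB3B, another RAB3 GTPase, fell by 0.78 in soma on the log2 scale and fell by 0.48 in neurites. Among 20 vesicle membrane proteins outside the members 3 rose and 5 fell in soma, and 4 rose and 4 fell in neurites. SYNPR, synaptoporin, fell by 1.81 in soma and fell by 1.179 in neurites. After HNRNPA1 knockdown 8 of 20 such proteins fell and 2 rose in neurites, where 7.21% of all genes were called lower and 8.96% higher, and 2 fell and 1 rose in soma, where 3.3% were called lower and 3.79% higher. SYT13, a further synaptotagmin, fell by 0.48 in soma and fell by 0.45 in neurites.

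In all 4 knockdown contrasts CPLX2 and SLC17A7 were called higher and SYT4, SNAP91 and RAB3C lower, and SYT2 was called in opposite directions by experiment. The share of all genes called alike in all 4 was not counted. With library sizes CPLX2 missed the threshold in HNRNPA1 knockdown neurites (adjusted p = 0.202). RAB3C, SYT4 and SYT2 missed it in TDP-43 knockdown neurites (adjusted p = 0.349, 0.258 and 0.407). SNAP91 missed it in TDP-43 knockdown soma and neurites (adjusted p = 0.574 and 0.486). Each experiment has its own controls, while the soma and neurite tests of 1 experiment use different libraries. The 7 members with a TG repeat of at least 12 bases took every course after TDP-43 knockdown in soma: SYT1 rose, SYT2, RAB3C and DNM3 fell, and SYT5, SYNGR1 and VAMP2 did not pass.

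Related genes can be compared inside a library, where scaling has no part. For 12 pairs the log2 ratio of their counts was taken in each library and groups were compared by a 2-sided exact permutation test, with p-values adjusted over 84 tests. Of these 28 passed: 3 in HNRNPA1-control and 3 in TDP-43-control neurites against soma, 3 and 8 after HNRNPA1 knockdown in soma and neurites, and 6 and 5 after TDP-43 knockdown. In untreated cells 4 against 4 libraries cannot go below an exact p of 0.0286 (adjusted 0.0684), so none could pass. There 5 of the 12 pairs had no overlap between neurites and soma. The differences were 1.92 for RAB3A/RAB3C, -1.49 for SLC17A6/SLC17A7, -0.61 for SYN1/SYN3, -0.53 for SYT4/SYT11 and 0.33 for CPLX1/CPLX2.

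The ratio SLC17A6/SLC17A7 was lower in neurites than in soma in both controls and lower after each knockdown. After HNRNPA1 knockdown it fell from 2.09 ± 0.18 to 1.47 ± 0.07 in soma (SD, n = 6 each, exact p = 0.00216, adjusted p = 0.0152) and from 1.37 ± 0.12 to 0.40 ± 0.21 in neurites (exact p = 0.00216, adjusted p = 0.0152), on the log2 scale and with no overlap in either. After TDP-43 knockdown it fell from 3.18 ± 0.12 to 2.64 ± 0.06 in soma (exact p = 0.0159, adjusted p = 0.0476) and from 2.95 ± 0.07 to 2.28 ± 0.22 in neurites (exact p = 0.00794, adjusted p = 0.0317). SLC17A6 kept the higher mean CPM in every group.

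The ratio SYT1/SYT2 moved in opposite directions. After HNRNPA1 knockdown it fell from 4.14 ± 0.03 to 3.60 ± 0.06 in soma (exact p = 0.00216, adjusted p = 0.0152) and from 4.02 ± 0.22 to 3.60 ± 0.16 in neurites, where the groups overlapped (exact p = 0.00649, adjusted p = 0.0317). After TDP-43 knockdown it rose from 3.65 ± 0.20 to 4.83 ± 0.10 in soma (exact p = 0.0159, adjusted p = 0.0476) and from 3.20 ± 0.08 to 3.87 ± 0.14 in neurites (exact p = 0.00794, adjusted p = 0.0317). CPLX1/CPLX2 fell after TDP-43 knockdown, from -2.86 ± 0.15 to -3.53 ± 0.15 in soma and from -3.21 ± 0.19 to -4.22 ± 0.11 in neurites. SYT4/SYT11 passed in all 4 knockdown contrasts, with differences of -0.19 and -0.16 after HNRNPA1 knockdown and -0.58 and -0.69 after TDP-43 knockdown, in soma and neurites. RAB3A/RAB3C rose in neurites after HNRNPA1 knockdown (0.32) and in soma after TDP-43 knockdown (0.52). VAMP1/VAMP2 and SYN1/SYN2 passed nowhere.

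**Figure D4:**
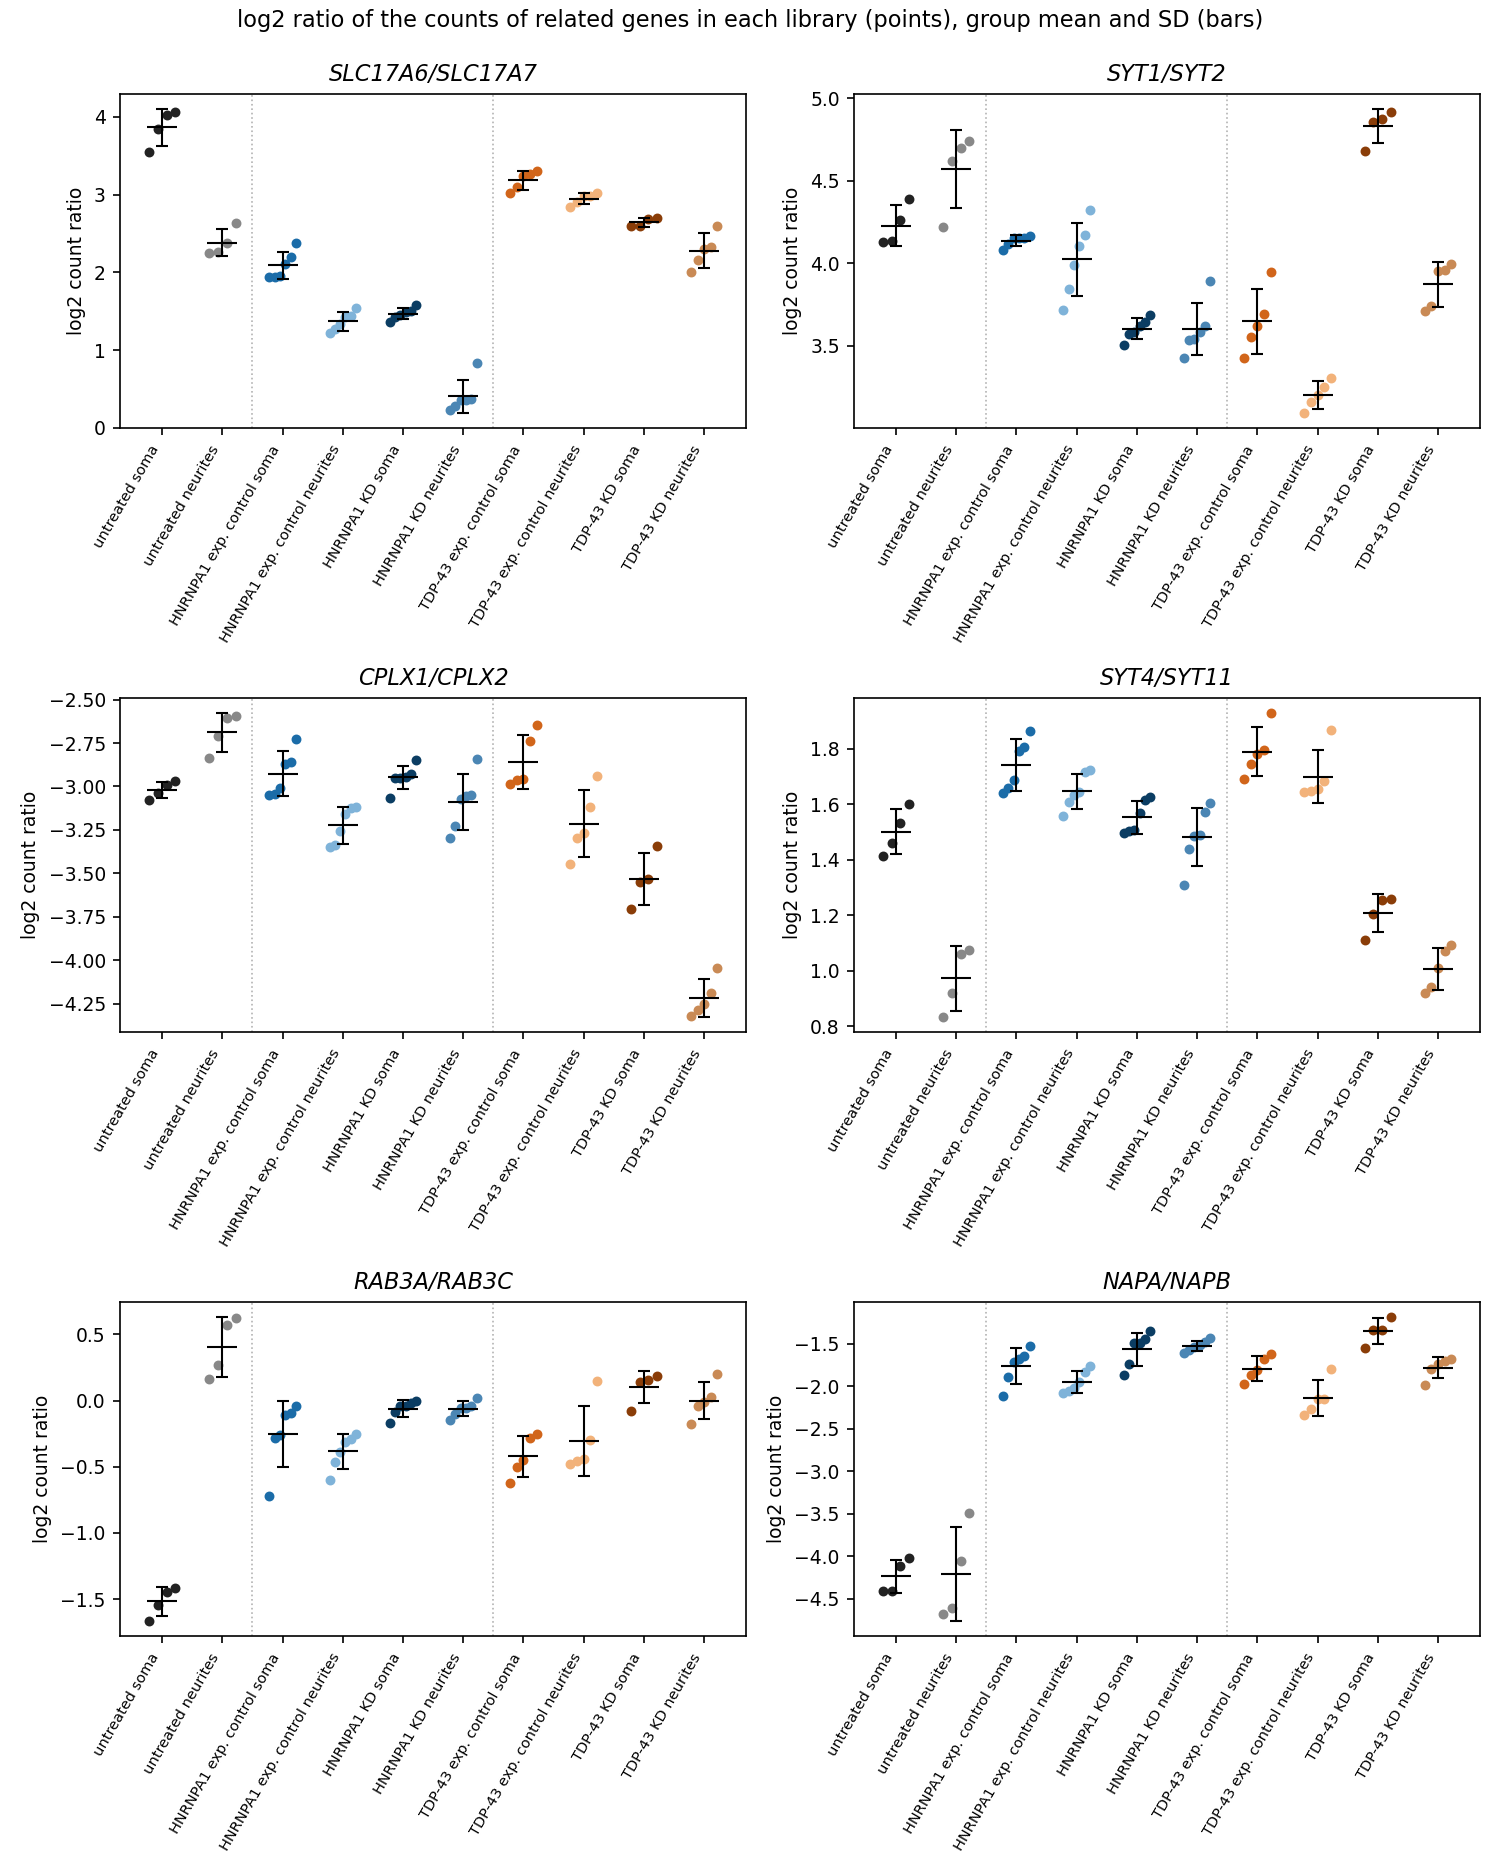
The log2 ratio of the counts of 2 related genes (y axis, a separate range in each panel) is shown in each of the 51 libraries (points) of the 10 groups (x axis), with group mean and SD as bars. SLC17A6/SLC17A7 falls from a mean of 2.09 in HNRNPA1-experiment control soma to 0.40 in knockdown neurites, and SYT1/SYT2 is highest in TDP-43 knockdown soma at 4.83.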

How the data were processed

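Expression of 35 genes was taken from a deposited table of RNA-seq counts per gene in 52 libraries. The deposited values are expected counts, and 81.1% of the nonzero ones are whole within 0.005. Per the submitters' processing notes, STAR 2.7.11b, featureCounts and Subread 2.0.6 were used, with build hg38. These notes do not state a gene annotation release, whether counting used strand, or how shared reads were handled. Exons of 12 members overlap a gene on the opposite strand, and those of VAMP2, SYN1 and NAPA overlap a gene on the same strand.

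Counts were rounded. Libraries under 100000 counts were left out (1 library). Each experiment was fitted with edgeR 4.0.16 (R 4.3.3): TMM, filterByExpr, 1 coefficient per group, 2-sided quasi-likelihood F tests, Benjamini-Hochberg adjustment over all genes, calls at adjusted p under 0.05. Differences in fraction ratio came from 1 fit over the untreated and both control sets. SE is the log2 value divided by the root of F. Paralog ratios used counts plus 0.5. Alternatives were library sizes, RLE, filters, DESeq2 1.42.0, limma 3.58.1 (voom), each library left out, and a block for sample numbers. The script was tested on simulated data.

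Sample numbers were checked for pairing. In control and knockdown soma of the TDP-43 experiment each of 3 same-numbered pairs correlated above 0.1 (0.115 to 0.136), a hint from the data of pairing. In no other pair of groups did every same-numbered pair correlate above 0.1. The main tests paired no libraries, and the block for sample numbers was used only as an alternative.

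Members and lists were chosen with earlier results of these data known. The naming rule took 8 core members, the 4 largest called changes in each direction, members called in an interaction or in both fractions of a knockdown, and up to 4 called genes of each related list. Not every value it picks is printed, as for neurites against soma within knockdown cells. Others named were chosen after their values were seen. TG repeats and coordinates come from GENCODE release 29.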

Additional observations from a re-analysis of the deposited data

Results flagged for a closer look

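In 160 combinations of 16 members and 10 groups, 10 held a library far from the rest of its group by Dixon's criterion, where chance flags about 1 in 20. HNRNPA1 knockdown neurite sample 4 was highest in 3 of them: SNAP25 at 96.2 CPM (next 84.2), SNAP91 at 131 (next 109) and RPH3A at 20.7 (next 16.4). Untreated soma sample 6 was highest for SNAP91 at 210.4 (next 195) and RAB3C at 456 (next 396). HNRNPA1-experiment control soma sample 6 was highest for SYT2 at 35.9 (next 33.5) and RPH3A at 21.97 (next 19.1). SYN1 was lowest in HNRNPA1 knockdown soma sample 3 at 60.7 (next 74.0). SYT4 was highest in TDP-43-experiment control neurite sample 6 at 550.5 (next 499), and CPLX1 was lowest in sample 2 of that group at 25.5 (next 29.8).

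A difference of effects between groups passed its own test for several members. The effect of TDP-43 knockdown was more positive in neurites than in soma for CPLX2 (0.48), SYT2 (0.44), RAB3C (0.41), VAMP2 (0.36), DNAJC5 (0.36), SYNGR1 (0.29) and SYT11 (0.25). Of these, SYNGR1, SYT11 and SYT2 each lost the call in several of the fits that left out a library (adjusted p up to 0.0982, 0.0735 and 0.0739). The neurite to soma ratio was higher in HNRNPA1 than in TDP-43 controls for SLC17A7 (0.49) and SYT1 (0.36). In untreated cells it was higher than in HNRNPA1 and TDP-43 controls for RAB3A (1.64 and 1.6), RPH3A (1.43 and 1.82), CPLX1 (0.96 and 1.31), SNCB (0.83 and 0.80), AMPH (0.52 and 0.49), BIN1 (0.43 and 0.65), DNM1 (0.39 and 0.46) and CPLX2 (0.32 and 0.60). It was lower for SLC17A6 (-0.75 and -0.73), SYT4 (-0.67 and -0.58) and SNAP25 (-0.44 in each). CPLX2 lost the call against HNRNPA1 controls in 7 of the fits that left out a library. Where every library of the smallest group needed at least 10 counts, DNM1 lost it against both controls (0.21 and 0.22), and BIN1 (0.25) and CPLX2 (0.15) against HNRNPA1 controls.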

How the results depend on the processing

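Calls over all genes with library sizes are given above, and between the controls they were 1360 of 29425. Library sizes in place of TMM changed most, moving the number of members called to 32 in untreated neurites against soma, 31 in HNRNPA1 controls, 33 in TDP-43 controls, 32 in HNRNPA1 knockdown cells, 9 and 6 after TDP-43 knockdown in soma and neurites, 0 for the TDP-43 interaction, 28 for untreated against HNRNPA1-control ratios and 5 between the controls. Signs reversed under it for CPLX2 in untreated cells (-0.0904), SLC17A7 (-0.027) and CPLX1 (-0.10) in HNRNPA1 controls, CPLX1 (-0.035) and SYN3 (-0.14) in HNRNPA1 knockdown cells, NAPB (-0.39), SYT2 (-0.35), CPLX2 (-0.24) and SYN3 (-0.16) in TDP-43 controls, VAMP2 (-0.063) in TDP-43 knockdown cells, and, for untreated against HNRNPA1-control ratios, AMPH (-0.086), DNM1 (-0.21), BIN1 (-0.17) and CPLX2 (-0.27). Of 115 values of named members 67 kept direction and call under it, and all 115 did with RLE and with DESeq2. The HNRNPA1 interaction gave 1 call with library sizes, RLE, either other filter, DESeq2 or the replicate block. The stricter filter gave 24 calls for untreated against TDP-43-control ratios, and no filter beyond 1 count gave 1 between the controls. With the stricter filter more members were lower than higher in untreated neurites against soma, the reverse of the main fit. Calls over all genes with either other filter are not given here. Leaving out 1 library gave 0 to 1 calls for the HNRNPA1 interaction (1 without control soma sample 3, control neurite sample 3 or knockdown neurite sample 6), 4 to 8 for the TDP-43 interaction and 10 to 16 for untreated against HNRNPA1-control ratios, and 19 to 32 for the related pairs. With the replicate block 0 of 84 pair tests passed, a design whose smallest exact p is 0.03125 (adjusted 0.175), and a limma-moderated test passed 43. The block ended 2 calls of named members, SYT2 in neurites and SYT11 in the interaction of the TDP-43 experiment. The causes were not tested. In untreated neurites DOC2A rests on 6 to 27 counts per library.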
